A study of Sus scrofa with 297 samples.

Results

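The genes described are the cytosolic ribosomal proteins of the pig liver. A gene was a member when its symbol in the array annotation began with RPL, RPS or RPLP followed by a digit, or was RPSA, and the RPS6K kinases were left out. The rule found 208 probe sets for 64 genes, out of 13755 genes with a symbol on the array, and each gene was represented by its probe set with the highest mean signal. Of these 64 genes, 23 encode proteins of the small (40S) subunit and 34 encode proteins of the large (60S) subunit, so that 57 of the 80 proteins of a mammalian ribosome were present. The other 7 names were RPS4, which is an older name of RPS4X, the paralogues RPL10L, RPL22L1, RPL26L1, RPL36AL and RPS27L, and RPS19BP1, which encodes a protein that binds RPS19 and is no ribosomal subunit itself.

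The livers came from 297 performance-tested German Landrace pigs at slaughter, in 1 group with no treatment. Each animal had 1 Affymetrix Porcine Snowball array, on which sets of short probes measure pig transcripts. Signals are given on the log2 scale after robust multichip average (RMA) normalization. For 289 pigs the labels gave the loin eye area (LEA, 43.7 ± 5.96 cm2, SD), the fat area over the loin muscle (FA, 14.1 ± 5.23 cm2) and the meat to fat ratio (MFR, 0.33 ± 0.137), and 8 pigs had no trait. MFR equalled FA divided by LEA within 0.01 in 289 pigs, so a higher MFR stands for more fat. The animal numbers form 9 number series that share their first 2 digits, with 9 to 94 pigs each, and the labels do not say what a series is. The arrays had median signals of 5.58 to 5.78, and the median Pearson correlation of an array with the others over tested transcripts was typically 0.954 and at the lowest 0.88. The hepatocyte markers ALB, APOA1, TTR, SERPINA1, CYP2E1, TF and FGB had a mean signal of 12.9 to 13.2 over the arrays, and those of T and NK cells had 6.27 to 7.65.

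A ribosome joins a 40S subunit, which reads the mRNA, to a 60S subunit, which forms the peptide bond and carries the tunnel through which the new protein leaves. Ribosomal protein mRNAs begin with a terminal oligopyrimidine (TOP) motif, through which the kinase mTOR and the binding protein LARP1 adjust their translation together. Hepatocytes need many ribosomes because they make most plasma proteins. Ribosomal protein genes also have many near-identical processed copies in mammalian genomes, so that a short probe can catch more than 1 locus. Of the 64 probe sets used, 13 carry the array maker's mark for probes shared by several transcripts and 3 carry its mark for probes that may cross-hybridise.

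Of the 64 members, 56 were among the transcripts tested, that is, those with the highest 20th percentile of signal, and 8 lay below that limit (RPL10, RPL11, RPL22L1, RPL29, RPL36A, RPS4X, RPS14 and RPS20). The 56 tested members had mean signals of 5.69 to 12.4 with a median of 9.31, against a median of 6.94 over all tested transcripts. Signals of different probe sets depend on their probes as well as on the RNA, so their order does not rank the genes. In a piece of liver, less RNA per cell and fewer cells of a type cannot be told apart.

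**Figure D1:**
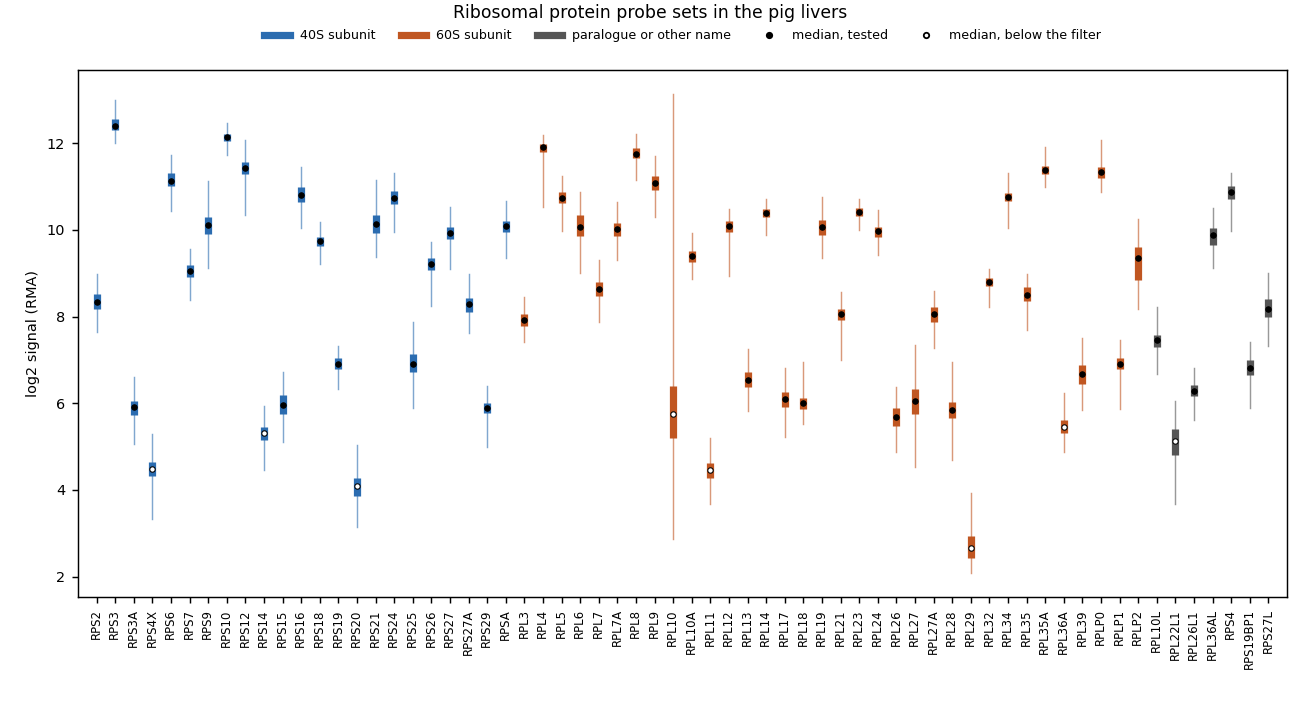
Log2 RMA signal of the 64 members by subunit over the 297 livers, with thin lines from the lowest to the highest liver, thick lines for the interquartile range and points for the median (open where the member lay below the filter). Most members stayed within a narrow band, and RPL10 had a single liver at 13.13.

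RPS3, which lines the entry of the mRNA channel, had 12.00 in its lowest liver, a median of 12.40 and 12.99 in its highest. RPS10, a protein of the 40S head, had 11.73, 12.13 and 12.46 as its lowest, median and highest value, and its SD of 0.125 was the smallest of the members. RPL4, whose long loop reaches into the exit tunnel, had 10.52, 11.91 and 12.19. RPL4 thus varied more than RPS10, with an SD of 0.264, and its low end lay farther from its median than its high end. RPL8, a core protein of the 60S subunit, lay between 11.15 and 12.22 (median 11.76), RPS12 between 10.35 and 12.07 (median 11.42) and RPL35A between 10.98 and 11.92 (median 11.38).

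At the low end, RPL29 had 2.09, 2.66 and 3.93 as its lowest, median and highest signal. RPS20 had 3.14, 4.09 and 5.03, and RPL11, which with RPL5 can bind and inhibit MDM2, had 3.67, 4.45 and 5.21. These signals lie below 5.32, the lowest 20th percentile among tested transcripts, in every liver, although these proteins are part of every ribosome, and they describe the probe set rather than the gene. RPS4X had a median of 4.49, while the probe set listed under its older name RPS4 had a median of 10.87. RPL22L1 and RPS14 had medians of 5.14 and 5.32.

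The SD of a tested member over the livers had a median of 0.228, with a range of 0.125 to 0.472. The median over all tested transcripts was 0.265, and 43 of 56 members lay below it. The members also had a higher median signal (9.31 against 6.94), and SD was not compared at matched signal. After RPS10, the smallest SDs were those of RPL23 (0.139), RPL14 (0.142) and RPL32 (0.147). RPL10 had the largest SD, 0.997, with 1 liver (animal 2598) at 13.13, the next highest at 7.58 and the lowest at 2.87. RPLP2, an acidic protein of the stalk that recruits elongation factors, had an SD of 0.472 and values from 8.17 to 10.25. RPL27, RPL22L1, RPL29 and RPL6 followed with SDs of 0.463, 0.451, 0.338 and 0.334.

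Where a tested member had further tested probe sets, which was so for 22 members, their rho with the probe set used had a median of 0.354 and ranged from -0.114 in RPL6 to 0.715 in RPLP0. In 10 of the 22 members it was below 0.3. The second RPL6 probe set had a mean signal of 6.35, against 10.09 for the one used. RPL19 is the name of 74 probe sets, of which 21 were tested, and their median rho with the brightest was 0.101. The values below are therefore those of the brightest probe set, not of every probe set under the name.

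Over the 297 livers the tested members were correlated with each other more often positively than transcripts at large. Of their 1540 pairs, 757 had a positive Spearman's rho past an FDR of 1% adjusted over all pairs of tested transcripts, which is 49.2%, against 30.7% of all pairs. A negative rho past the FDR was found for 212 pairs, or 13.8%, against 26.7% of all pairs. The median rho of a member pair was 0.153, against 0.0272 over all pairs. The correlation was of moderate size, with 148 pairs above 0.5 and 12 below -0.5. It crossed the 2 subunits, since the median rho was 0.158 over 190 pairs within the 40S, 0.167 over 435 pairs within the 60S and 0.157 over 600 pairs between them.

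With ranks centred within number series the member pairs kept a median rho of 0.138, against 0.0189 over all pairs. With 5 principal components of the whole expression table removed, 457 member pairs were positive past the FDR, or 29.7%, against 1.33% of all pairs, and 9 were negative, or 0.584%, against 0.959%. The median rho was then 0.106, against 0.0028 over all pairs. Of these 9 negative pairs, 7 held RPS27L, the p53-inducible paralogue of RPS27 in human cells, and the lowest was RPL10L with RPS27L at -0.38. The highest pairs at that setting were RPL10A with RPSA at 0.66, RPL8 with RPS16 at 0.631 and RPL10A with RPL7A at 0.625. The probe sets of RPL10A and RPSA carry the mark for possible cross-hybridisation, and those of RPL8, RPS16 and RPL7A the mark for shared probes. Further tested probe sets of RPSA, RPL8, RPS16 and RPL10A had a median rho of 0.0833, 0.167, 0.633 and 0.644 with the one used. The part of shared probes in these pairs was not tested.

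**Figure D2:**
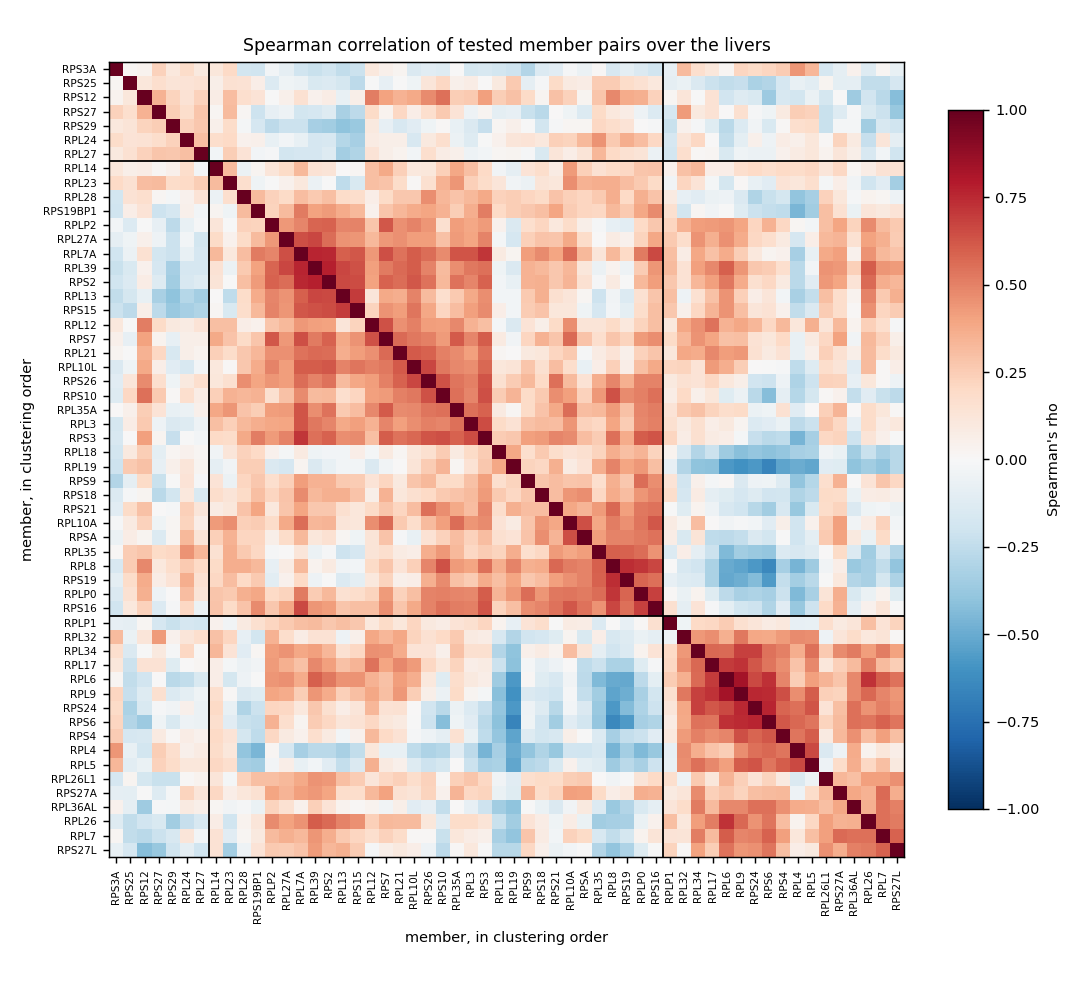
Spearman's rho of the 1540 pairs of 56 tested members over 297 livers, from blue (-1) through white to red (1), with members in the order of average-linkage clustering on both axes and lines between its 3 groups. The groups of 32 and of 17 members are mostly red inside, and RPL19, RPL8 and RPS19 are blue against RPL6, RPL9, RPS24 and RPS6.

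Average-linkage clustering on rho, divided into 3 groups, gave sets of 32, 17 and 7 members, which describe these livers and carry no test. Because the sets were formed from these same rho values, high inner values follow from the grouping. The set of 32 holds RPS3, RPL7A, RPS2, RPL8, RPL19 and RPLP0, with 12 proteins of the 40S, 18 of the 60S and 2 other names. Its inner median rho was 0.314, and 389 of its 496 pairs were positive past the FDR. The set of 17 holds RPL9, RPL6, RPS6, RPS24, RPL17, RPL34, RPL4 and RPL5. It has 3 proteins of the 40S, 10 of the 60S and 4 other names, among them RPS4, the older name of RPS4X. Its inner median rho was 0.411, and 112 of its 136 pairs were positive past the FDR. Between these sets the median rho was 0.0395, with 175 positive and 133 negative pairs of 544 past the FDR. Over all pairs of tested transcripts 30.7% were positive and 26.7% negative past it. With 5 principal components removed the sets were hardly set apart, as the median rho was 0.108 between them. It was 0.144 inside the set of 32 and 0.15 inside the set of 17. Of the pairs between them, 154 were positive and 5 negative past the FDR, beside 1.33% and 0.959% of all pairs. Values given by set in what follows hold for the data without that removal. The remaining 7 members were RPS3A, RPS12, RPS25, RPS27, RPS29, RPL24 and RPL27, with an inner median rho of 0.176.

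The 5 highest pairs were RPL6 with RPL9 (rho = 0.829), RPL39 with RPS2 (0.78), RPS24 with RPS6 (0.764), RPL39 with RPL7A (0.763) and RPL9 with RPS24 (0.756). Within number series these values were 0.713, 0.534, 0.792, 0.572 and 0.692, in that order, and with 5 principal components removed they were 0.315, 0.187, 0.37, 0.387 and 0.401. RPS6 is the 40S protein that S6 kinases phosphorylate below mTOR, and RPL9 lies near the stalk base of the 60S subunit. The lowest pairs joined the same genes to others: RPL19 with RPS6 had a rho of -0.659, RPL8 with RPS6 of -0.647 and RPL19 with RPL9 of -0.608. With 5 components removed these were -0.149, 0.0656 and -0.129, so that the sign of RPL8 with RPS6 turned and none was past the FDR. These pairs were picked for their values and are a description.

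The array carries 69 control probe sets for background, which match no pig transcript, and their mean signal of 4.63 ± 0.149 (SD, n = 297) moved with the division into sets. All 17 members of the set with RPL9 and RPS6 had a negative rho with the background signal, with a median of -0.515 and the lowest value at -0.798 in RPL9. In the set of 32 the rho was positive for 20 members and negative for 12, with a median of 0.142 and the highest value at 0.658 in RPL8. Within number series the medians were -0.465 and 0.303. Over all members the median size of this rho was 0.261, against 0.216 over all tested transcripts. It was over 0.5 in size in 12 of the 56 members, against 8.04% of all tested transcripts. The share of all tested transcripts with a negative rho was not counted. With the background signal regressed out of the ranks, 789 member pairs were positive past the FDR, or 51.2%, against 27.8% of all pairs. The median rho of a member pair was then 0.17, against 0.0215 over all pairs. The inner median of the set of 17 was 0.247 and that between the 2 large sets was 0.112.

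RPS2, which sits at the entry of the mRNA channel, had the highest median rho with the other members, 0.331. RPL7A (0.327), RPL39, a small protein of the exit tunnel (0.326), RPS7 (0.29), RPL35A (0.282) and RPL27A (0.279) came next. All 6 belonged to the set of 32. That set is the largest and was formed from these same rho values, so this is no separate result. At the other end RPL4 had a median rho of -0.115, with 14 positive and 25 negative pairs past the FDR, and RPS3A had -0.0563. RPL5 (-0.0282), RPL19 (-0.0259), RPS29 (-0.0206) and RPS25 (-0.00272) had medians near 0. In the case of RPL19 and RPL5 this median joins strong correlations of both signs, as RPL5 reached 0.663 with RPL4 and -0.521 with another member.

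Proteins that lie near each other in the ribosome were not uniformly correlated. RPS3 and RPS2, neighbours at the mRNA entry, had a rho of 0.592 (r = 0.634), where the permutation p was 1e-05 for both, the lowest that the permutations can give, and 0.479 within number series. The 5 tested proteins along the mRNA path (RPS2, RPS3, RPS3A, RPS15 and RPS26) had a median rho of 0.429, but RPS3A was negative with the other 4, between -0.213 with RPS15 and -0.114 with RPS26. The 5 tested proteins around the exit tunnel (RPL17, RPL19, RPL26, RPL35 and RPL39) had a median rho of -0.102, between -0.409 for RPL17 with RPL19 and 0.606 for RPL26 with RPL39. In the stalk, RPLP1 and RPLP2, which form a dimer, had a rho of 0.215 (permutation p = 0.00022; r = 0.189, permutation p = 0.00094) and 0.098 within number series. RPLP0, to which this dimer binds, had a rho of 0.0112 with RPLP1 (permutation p = 0.848; r = 0.0187, permutation p = 0.75).

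The paralogue pairs went in both directions. RPS27 and RPS27L had a rho of -0.378 (r = -0.336, each permutation p = 1e-05) and of -0.251 within number series. RPL26 and RPL26L1 had a rho of 0.412 (r = 0.394, each permutation p = 1e-05) and of 0.175 within number series. The RPL26L1 probe set carries the mark for shared probes, and its other tested probe set had a rho of 0.287 with it. Whether it also reads RPL26 was not tested. RPS19 and RPS24, whose human genes are mutated in Diamond-Blackfan anaemia, a failure of red cell production, had a rho of -0.432 (r = -0.473, each permutation p = 1e-05). That correlation was -0.354 within number series and turned positive, 0.21, with 5 principal components removed. RPS27A, which is made as a fusion with ubiquitin, had a rho of 0.068 with RPL23 (permutation p = 0.243; r = 0.112, permutation p = 0.0536). Without the 2 livers farthest from the median of the first gene, r of these 7 pairs was 0.621 for RPS3, 0.19 for RPLP1, 0.0503 for RPLP0, -0.351 for RPS27, 0.382 for RPL26, -0.458 for RPS19 and 0.11 for RPS27A. Adjusted over all pairs of tested transcripts, 5 of these 7 pairs passed the FDR of 1%, and those of RPLP0 with RPLP1 (adjusted p = 0.876) and RPS27A with RPL23 (adjusted p = 0.299) did not. At this FDR 30.7% of all pairs were positive and 26.7% negative, so a pass was common among tested transcripts at large. The shares were 27.1% and 25.1% within number series, and 1.33% and 0.959% with 5 principal components removed. Within number series, where the FDR corresponds to a rho of 0.164, RPLP1 with RPLP2 did not pass and RPS27A with RPL23 did, at 0.209. With 5 principal components removed, where it corresponds to 0.214, RPS27 with RPS27L alone passed among these 7, at -0.263, while RPS3 with RPS2 had 0.186, RPL26 with RPL26L1 had 0.178 and RPLP1 with RPLP2 had -0.0169. The 13 tested genes of the Diamond-Blackfan list had a median rho of 0.124 among themselves.

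Outside the members, the 10 genes with the highest median rho with the 56 members over the 297 livers were SNRPD2 (0.34), PDE4D (0.325), VTN (0.322), TTR (0.322), LOC100156010 (0.322), KDELR1 (0.315), CREBL1 (0.313), DAZAP2 (0.312), EEF1D (0.311) and LONP1 (0.31). The median of this measure over all other tested transcripts was 0.0627. SNRPD2 encodes a core protein of the spliceosome, and VTN and TTR encode the plasma proteins vitronectin and transthyretin. EEF1D, a subunit of the exchange factor that reloads the elongation factor EEF1A1 with GTP, had a median rho of 0.42 with the set of 32 and of -0.144 with the set of 17. TTR had 0.322 and 0.414 with these sets in the probe set with this rank, and its brighter probe set had a median rho of 0.229 with all members.

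Other TOP mRNAs, which encode elongation factors, initiation factors and further proteins, did not all lie with the members. Of 13 tested, 7 had a positive median rho with the members, and the list's median was 0.0684. EEF1A1, which carries tRNA to the ribosome, had a median rho of -0.0804 with the set of 32 and of 0.524 with the set of 17, and NACA, which guards the new chain at the exit tunnel, had 0.1 and 0.594. EIF4A2, a helicase of initiation, had -0.4 and 0.255. The direction thus depended on the set, and 8 of the 13 had a higher median with the set of 17 than with that of 32.

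The 12 tested regulators of ribosomal protein synthesis had a median rho of 0.102 with the members, and 10 of them had a positive median. LARP1 had 0.36 with the set of 32 and -0.0459 with the set of 17, and MTOR had 0.306 and -0.158. RPS6KB1, the S6 kinase, had -0.432 and 0.114, and MDM2, the ligase that inactivates p53, had -0.39 and 0.173. Of the 12 regulators, 3 had a higher median with the set of 17 than with that of 32. The 18 tested genes of ribosome assembly had a median of 0.0294, between -0.201 in SBDS and 0.255 in POLR1A, the largest subunit of RNA polymerase I. Among themselves the assembly genes had a median rho of 0.269 and the regulators of 0.134. Mitochondrial ribosomal proteins, which translate the mitochondrial genome, had a median rho of 0.0814 with the members and 0.182 among themselves over 55 tested genes. They had 0.143 with the set of 32 and 0.00352 with the set of 17.

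Among the cell type marker lists, that of hepatocytes had the highest median rho with the members when number series were left aside. The 7 hepatocyte markers had a median rho of 0.157 with the members, close to the 0.153 of the members' own pairs, against 0.0112 for 5 Kupffer cell and macrophage markers, 0.0428 for 7 T and NK cell markers, 0.0302 for 3 B and plasma cell markers, 0.0773 for 3 erythrocyte markers, 0.048 for 5 endothelial markers, 0.0879 for 6 stellate cell markers, 0.105 for 3 bile duct markers and 0.0918 for 4 neutrophil markers. Of the 7 hepatocyte markers, 3 had a higher median with the set of 17 than with that of 32, and 4 a lower one. ALB, the serum albumin gene, had -0.036 with the set of 32 and 0.544 with the set of 17, TF, the transferrin gene, had 0.101 and 0.583, and FGB, a chain of fibrinogen, had -0.278 and 0.285. In the other direction APOA1, the main protein of high-density lipoprotein, had 0.374 and -0.0303, SERPINA1, which encodes alpha-1-antitrypsin, had 0.288 and -0.0629, TTR had 0.29 and 0.169 and CYP2E1, a cytochrome P450, had 0.203 and 0.12. Within number series the hepatocyte list had a median rho of 0.0987 with the set of 32 and of 0.0967 with the set of 17. The stellate cell list had 0.1 and 0.101, the bile duct list 0.181 and -0.0465, and the neutrophil list 0.168 and -0.141. The remaining lists were lower than the hepatocyte list with both sets. Mean hepatocyte marker signal had 37.8% of its variance between number series, against 6.3% to 15.9% in the other lists. The part of the markers in the correlation between members was not tested.

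Number series held a larger share of the variance of the members than of transcripts at large. The share between the 9 series, as the between-series sum of squares over the total, had a median of 20.1% in the 56 tested members, against 15% over all tested transcripts. It lay above 28.8%, the 90th percentile of all tested transcripts, in 15 members. By limma's moderated F over the series, adjusted by Benjamini-Hochberg over all tested transcripts, 54 of the 56 members passed an FDR of 1%, against 88.0% of all tested transcripts. RPL32 (adjusted p = 0.042) and RPLP0 (adjusted p = 0.151) did not pass. With the mean of a member's tested probe sets in place of the brightest, 54 passed again but RPL32 was among them (F = 18.8, adjusted p = 2.2e-21), while RPL12 did not pass (adjusted p = 0.0517).

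**Figure D3:**
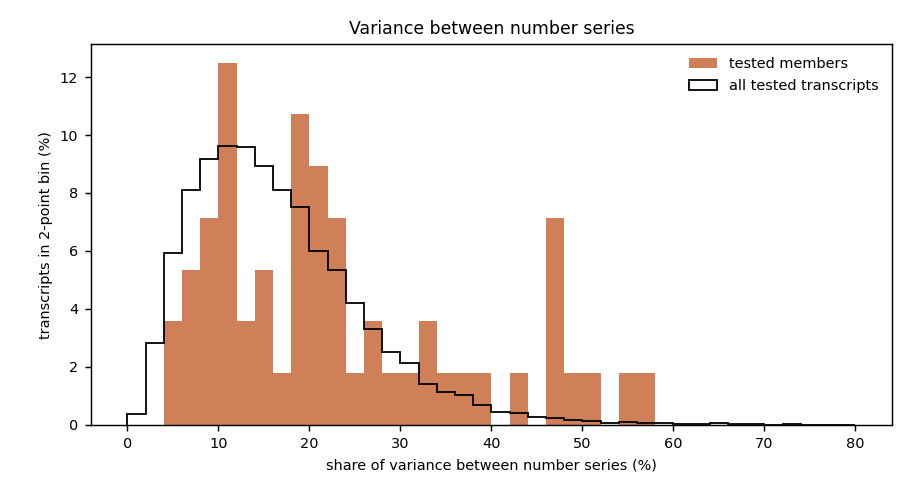
Share of variance between number series (horizontal axis, %) in bins of 2 points, as a percentage of the 56 tested members (filled) and of all tested transcripts (line). Of the 56 members, 15 lie above 28.8%.

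RPL6 had the largest share, 57.4% (F = 48.3, adjusted p = 1.2e-46), in its brightest probe set, and F was 8.1 with the mean of its probe sets (adjusted p = 1.9e-09). Its mean signal was 9.80 ± 0.23, 9.70 ± 0.24, 9.86 ± 0.18, 9.90 ± 0.13, 9.95 ± 0.19, 9.75 ± 0.21, 10.09 ± 0.27, 10.50 ± 0.18 and 10.24 ± 0.26 (SD) in series 21 to 29, with 29, 19, 31, 28, 21, 9, 20, 46 and 94 pigs. Series 28 was the highest, and its lowest liver, at 9.88, overlapped with those of every other series. RPL39 (54.9%, with F of 43.7 and of 12.9 with the mean of its probe sets) and RPL26 (48.6%) were also highest in series 28, at 6.94 ± 0.20 and 6.02 ± 0.19, against 6.28 ± 0.17 and 5.50 ± 0.19 in series 21.

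RPS2 (47.6%) lay at 8.09 to 8.22 on average in series 21 to 25 and at 8.43 to 8.52 in series 26 to 29. RPL7A (47.8%) was lowest in series 21 at 9.63 ± 0.16 and highest in series 26 at 10.20 ± 0.16, where the lowest liver had 10.05 and the highest liver of series 21 had 10.01. RPLP0, the scaffold of the stalk, stayed between 11.29 and 11.47 in all 9 series, with a share of 4.11%. RPL32 (5.58%), RPSA, which is also known as the laminin receptor (6.87%), and RPS3A (7.61%) had the other smallest shares. The adjusted p was 0.0096 for RPSA and 0.0039 for RPS3A, and both calls were lost without the 5 arrays least like the others (adjusted p = 0.0115 and 0.016) and without the series of under 20 pigs (0.0469 and 0.0115). With the mean of its probe sets, however, RPSA had an F of 12.1 (adjusted p = 3.4e-14), against 2.63 in its brightest probe set.

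RPLP2 had a share of 51.7%, and its course along the animal number was unlike that of RPL6. Its series means were 9.19, 9.28, 8.92, 8.59, 8.65, 9.16, 9.58, 9.53 and 9.48 in series 21 to 29, so that it was low in series 23 to 25. Within series 29 the 16 pigs numbered 2982 to 2997 had 8.17 to 9.02 with a median of 8.49, and the 78 pigs numbered 2900 to 2981 had 9.22 to 10.14 with a median of 9.70. These ranges do not overlap, and since the boundary was read from the values themselves no test applies to it.

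**Figure D4:**
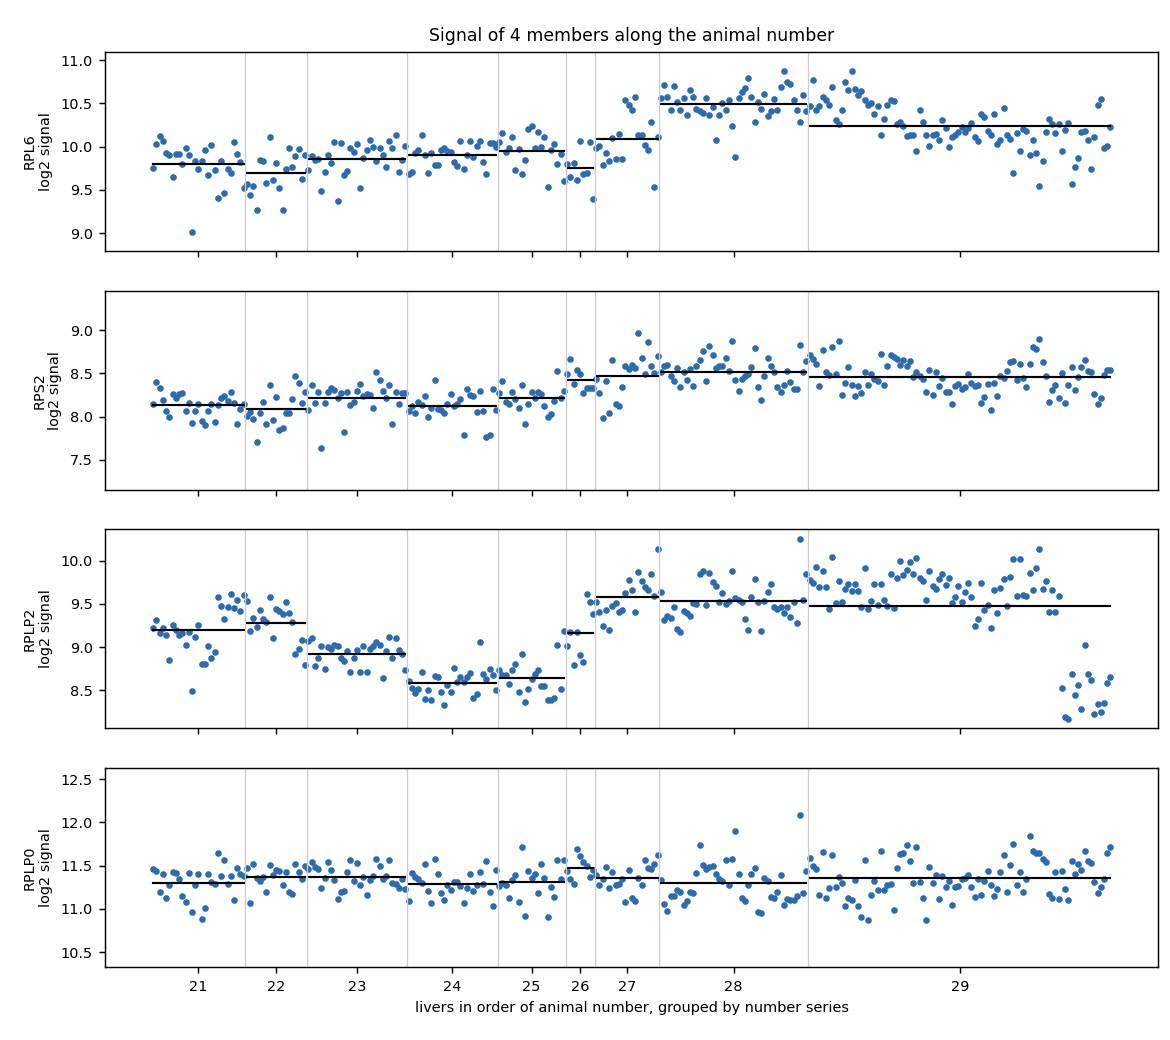
Log2 signal of RPL6, RPS2, RPLP2 and RPLP0 (vertical axes, all spanning the same range) in the 297 livers ordered by animal number, with number series 21 to 29 separated by grey lines and series means as black lines. RPLP2 is at 8.17 to 9.02 in the last 16 livers, and RPLP0 keeps nearly the same mean in every series.

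Pigs with neighbouring numbers were alike in many members. The rank correlation between each liver and the next by animal number had a median of 0.308 in the members, with a range of 0.0561 in RPLP1 to 0.828 in RPLP2, against 0.247 over all tested transcripts. It was 0.702 in RPL6 and 0.646 in RPL39, and the 99th percentile of all tested transcripts was 0.581. The mean signal of the background control probe sets also differed between series, with a share of 33.7%, and was lowest in series 28 (4.50 ± 0.143) and highest in series 26 (4.80 ± 0.11). Its part in the differences between series was not tested.

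No member was called for a carcass trait. Over 289 pigs at an FDR of 1% the Spearman test called 0 of 56 members for LEA, against 0.823% of all tested transcripts, 0 for FA, against 0.329%, and 0 for MFR, against 0.189%. Pearson's test at the same FDR called 2 members for LEA, RPS19BP1 and RPL21 (r = -0.227), and removal of 5 principal components gave a call for RPS19BP1 (rho = -0.282). The share of all tested transcripts called at these settings was not counted, so these calls cannot be set against it. The median rho of the members was -0.023 with LEA, -0.0345 with FA and -0.0157 with MFR, against -0.0129, -0.00552 and 0.000166 over all tested transcripts. The 8 members below the filter were not called either when all probe sets were tested, with rho between -0.121 and 0.18 over the traits.

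**Figure D5:**
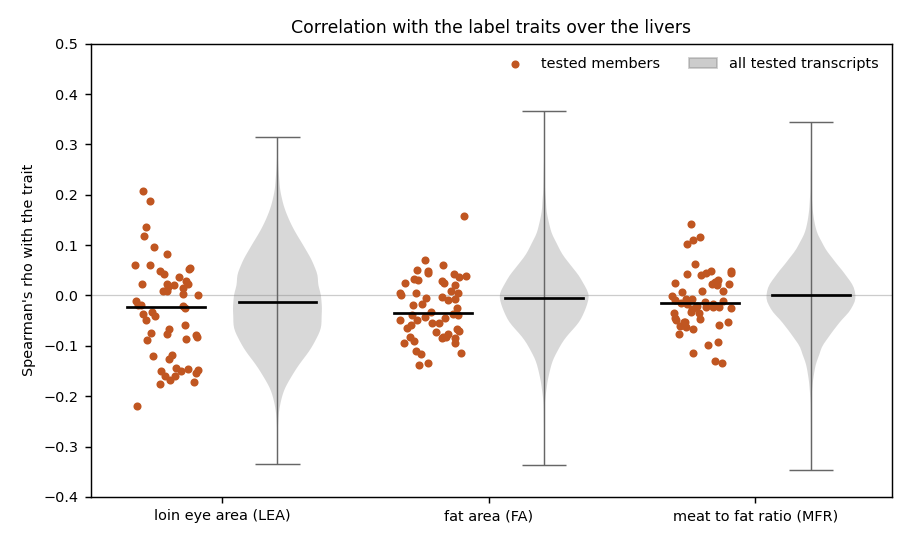
Spearman's rho with LEA, FA and MFR over 289 pigs for each of 56 tested members (points, scattered sideways for legibility) and for all tested transcripts (grey shapes from the lowest to the highest value), with black lines at the medians. All members lie between -0.22 and 0.207, inside the range of the other transcripts.

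At an unadjusted p under 0.05, 19 members were correlated with LEA, 15 negatively and 4 positively, which is 33.9% of the members against 21.8% of all tested transcripts. The loin eye area itself had 22.2% of its rank variance between number series, and with ranks centred within series 8 members had an unadjusted p under 0.05, of which 6 were among the 19 with the same sign, beside 8.54% of all tested transcripts. For FA 4 members had an unadjusted p under 0.05, or 7.14% against 11.1% of all tested transcripts. For MFR there were 4 as well, or 7.14% against 8.62%.

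RPS19BP1 came nearest to a call, with a rho of -0.22 with LEA (FDR = 0.0145, permutation p = 0.00016) while r was -0.267 (permutation p = 1e-05). The direction was negative in 8 of 9 number series, rho was -0.177 within series and r was -0.248 once the 2 pigs with the most extreme LEA were left out. RPS29 (rho = 0.207, FDR = 0.022) and RPS25 (rho = 0.187, FDR = 0.042) followed with the opposite sign.

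RPL27 was the nearest for FA, with a rho of 0.157 (FDR = 0.194, permutation p = 0.00747; r = 0.149, permutation p = 0.0114), and for MFR, with a rho of 0.142 (FDR = 0.378, permutation p = 0.0155; r = 0.139, permutation p = 0.0177). Both were positive in 7 of 9 number series, with values of 0.1 and 0.119 within series, and r was 0.13 and 0.124 once the 2 most extreme pigs of each trait were left out. RPL27A had a rho of -0.12 with LEA (FDR = 0.21, permutation p = 0.043; r = -0.137, permutation p = 0.0199), which was 0.0295 within series. RPL35 had a rho of 0.0602 with LEA (FDR = 0.561, permutation p = 0.308; r = 0.00173, permutation p = 0.977). RPS19BP1 and RPL27 were picked as the members nearest to a call, and their permutation p takes no account of that choice, whereas the FDR is adjusted over all tested transcripts for each trait.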

How the data were processed

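Liver RNA of 297 pigs was measured, 1 array each. The authors made the deposited log2 signals by RMA in Expression Console, and the submitters' processing notes name GCOS 1.1.1. Of 47845 probe sets, 123 controls were left out, and tests ran on 24909, ranked by the 20th percentile of their signal, in place of the authors' detection filter. Gene symbols came from the platform annotation, and 63 of 64 members matched a current RefSeq symbol. The residuals that the authors correlated were not formed, so values were used as deposited.

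Traits and pairs were tested by Spearman's rho, with p from the t distribution adjusted by Benjamini-Hochberg over all tested transcripts or all their pairs (threshold on a grid of rho). Permutation p values are two-sided, from 100000 orders. Number series were tested with limma 3.58.1 in R 4.3.3, and Python 3.11.15 with numpy 2.4.6 and scipy 1.17.1 did the rest. Scripts were tested on simulated data. Genes were named by a rule that takes the extremes of mean, SD, share between series, median rho and pairs, the member nearest to each trait, listed pairs, RPL27A and RPL35. The lowest pairs, the pairs after removal of 5 components, RPS29 and RPS25 with LEA and the members of gene lists that are printed were chosen after their values were seen. Members and lists were chosen with earlier results of these data known. The number of arrays limits the precision, and p-values treat the pigs as independent, which neighbouring numbers were not.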

Additional observations from a re-analysis of the deposited data

Results flagged for a closer look

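RPS3A was at 5.06 in 1 of the 9 pigs of number series 26, farther from the next pig than the spread of the other pigs there allows by Dixon's criterion. The 10 members named for their share between series were examined in that series, the only one of 10 or fewer pigs, and 1 was marked, while chance marks about 1 in 20.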

How the results depend on the processing

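Of the counts of called members and pairs and the median rho, 42 of 46 alternative values stayed within 1.5 times the count or within 0.05 of the median. The exceptions were the calls for LEA and the positive member pairs. For LEA, Pearson's test called 2 members (RPS19BP1, FDR = 0.0015, and RPL21, FDR = 0.00799) and removal of 5 principal components 1 (RPS19BP1, FDR = 0.000492). The share of all tested transcripts called was not counted at either setting. The positive member pairs were 457 with 5 components removed, or 29.7%, against 1.33% of all pairs. They were 487 of 903 among the 43 members in the upper part of mean signal, where fewer pairs exist. That is 53.9%, against 33.6% of all pairs in that part. The sign of uncalled values turned for RPL27A within number series (LEA 0.0295, FA 0.017) and for RPL35 (LEA -0.017 with 5 components removed; FA -0.00167 by Pearson, -0.037 within number series, -0.0302 with 5 components removed and -0.0155 without the 2 farthest pigs). The cause was not tested. Without the series of under 20 pigs, RPSA, RPS3A and RPL10A (adjusted p = 0.0232) were no longer called between series, where RPSA and RPS3A had shares of 4.85% and 6.2%. RPSA and RPS3A also lost their calls without the 5 arrays, RPSA did over all probe sets (adjusted p = 0.0113), and with the mean of probe sets RPL32 gained a call and RPL12 lost its own. Leaving out the 5 arrays least like the others and regressing out the background signal were chosen after seeing the data. No paired analysis was possible because there is 1 group.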
